A study of Mus musculus with 4 samples.

Results

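The UDP-glucuronosyltransferases (UGTs) and the sulfotransferases of the SULT family were followed as a group of conjugation enzymes in single liver cells of mice that lacked YAP, TAZ or both in hepatocytes. Members were chosen by name alone: a symbol with Ugt, a family number from 1 to 3, an optional letter and a number, or with Sult and a number. Of the 55488 genes in the deposited matrices, 48 met this rule, 21 UGT genes (9 Ugt1a, 3 Ugt2a, 7 Ugt2b and 2 Ugt3a) and 27 SULT genes (8 Sult1, 13 Sult2, 2 Sult3, 1 Sult4, 1 Sult5 and 2 Sult6, pseudogenes included).

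The study sequenced primary liver cells of 4 untreated mice, 1 for each genotype, with droplet-based 3′ single-cell RNA sequencing (10x Genomics Chromium, chemistry v3.1, Illumina NovaSeq). The genotypes were wildtype (WT), YAPKO (loxP-flanked Yap alleles), TAZKO (loxP-flanked Taz alleles) and DKO (both), and the knock-outs carried a Cre recombinase under albumin control (Alb-Cre). Alb-Cre acts in hepatocytes (HCs) and biliary epithelial cells (BECs), so the other liver cells kept Yap and Taz. HCs and non-parenchymal cells were isolated apart and then mixed at 3:7, so the number of HCs in a library says nothing about the liver they came from. The labels gave no age, sex or strain for these animals. Because each genotype was 1 mouse and 1 library, the genotype, the animal and the isolation cannot be told apart.

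UGTs sit in the membrane of the endoplasmic reticulum and join glucuronic acid, carried by UDP-glucuronic acid, to bilirubin, steroids, bile acids and drugs. SULTs are mostly cytosolic and transfer sulfate from its activated donor, PAPS, to phenols, steroids, bile acids and catecholamines. The liver is the main site of both reactions, which make their substrates soluble enough to leave in bile or urine, and several mouse SULT genes are known to be expressed mainly in the liver of one sex.

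The matrices of WT, YAPKO, TAZKO and DKO, the order used for all values given without names, held 13657, 7711, 14418 and 9188 barcodes and 66259687, 85989454, 49022089 and 77411746 unique molecular identifiers (UMIs). Cells with 500 to 6000 genes and at most 10% mitochondrial UMIs numbered 7155, 6275, 8638 and 8294. HCs, the kept cells in which Alb, Apoa1, Ttr and Apoc3 together held at least 3% of the UMIs, numbered 2254, 1159, 3112 and 2925 and held 19180146, 16905756, 14371818 and 31451371 UMIs. These 4 genes made up 8.76, 7.79, 8.02 and 7.1% of the UMIs of HCs and 0.329, 0.106, 0.41 and 0.219% of those of the other kept cells. HC depth differed between libraries, with medians of 2166.5, 6457, 1854.5 and 6475 UMIs and 721.5, 1771, 848 and 1843 genes, so WT and TAZKO held mostly shallow HCs and YAPKO and DKO deep ones.

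Levels are counts per 1000000 UMIs (CPM), taken over all HCs of a library, so each HC weighs by its UMIs. A UMI tags 1 end of a transcript, so levels were not divided by gene length. With 1 library per genotype no test between genotypes was possible: each knock-out was set against the same WT library as a log2 ratio, with an exact 95% interval in brackets that covers counting error only. A gene was called higher at a fold of at least 2 (a log2 ratio of 1) and lower at a fold of at most 0.5, provided that its mean over the 4 libraries was at least 5 CPM. Calls are those under these main settings unless another setting is named. This floor was passed by 8425 genes, among them 15 members, 10 UGT and 5 SULT genes. Over the 8425 genes the median log2 ratio was 0.40 in YAPKO, 0.58 in TAZKO and 0.45 in DKO, so most genes stood above WT, and ratios are also given less this median.

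As a check of the labels, Yap1 stood at 21.2, 4.55, 46.3 and 4.67 CPM in HCs and fell in YAPKO and DKO, with log2 ratios of -2.22 and -2.18. Wwtr1, the gene of TAZ, stood at 5.58, 13.5, 3.34 and 2.89 CPM, and its ratios of -0.74 (-1.26 to -0.24) in TAZKO and -0.95 (-1.37 to -0.53) in DKO were below 0 without passing the fold, which they did pass less the median of all genes, at -1.32 and -1.39. Yap1 stood higher in TAZKO, at 1.13, and Wwtr1 in YAPKO, at 1.28, or 0.55 and 0.88 less the median of all genes. A 3′ tag may lie outside the deleted part of a gene, so remaining UMIs do not measure the remaining protein. All 4 listed genes of the Y chromosome had UMIs in the HCs of every library (Ddx3y 49.6, 70.0, 111 and 76.8 CPM), while Xist stood at 0, 0.177, 0.139 and 0.159 CPM, so all 4 livers carried a Y chromosome.

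The members lie mostly in 4 gene clusters (GRCm38). All 9 Ugt1a genes overlap within chr1:88055388-88220002, a stretch of 165 kb, and 5 of them share their annotated end. Windows of 60 bases in the last 500 bases of Ugt1a1, Ugt1a2, Ugt1a5, Ugt1a6b, Ugt1a8 and Ugt1a9 were shared with another member in 100% of cases. The assignment of a 3′ tag to 1 Ugt1a gene is therefore uncertain, and the Ugt1a genes are best read as a sum. The sum would still be too low if tags that fit more than 1 gene were left uncounted, which was not tested. On chr5:86889767-87591594, a stretch of 702 kb, all 10 Ugt2 genes lie together with Sult1b1, Sult1d1 and Sult1e1, and only 1 of its 14 protein-coding genes, Gm43638, is not a member. The 12 Sult2a genes and pseudogenes span 870.3 kb of chr7:13623967-14494230, and Ugt3a1 and Ugt3a2 lie side by side on chr15:9276888-9370955. Ends of the abundant members outside Ugt1a were nearly unique: the share of windows found elsewhere was 6.84% for Sult1a1, 3.58% for Ugt3a1, 2.18% for Sult2a8, 0.907% for Ugt2b5 and 0.849% for Sult5a1, and 0 for the other 9.

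RefSeq promoter sequences (GRCm38.p6) were at hand for 36 of the 48 members, and none was for Sult1c2-ps1, Sult1c2-ps2, Sult2a-ps1, Sult2a-ps2, Sult2a-ps3, Sult2a-ps4, Sult2a1, Sult2a2, Sult2a7, Sult4a1, Ugt1a6b and Ugt3a2. In the 250 bases before the start, the core letters of an HNF1 motif, TTAATNATT on either strand, occurred in 13 of the 36 members and in 1.40% of the 32851 promoters of all genes. The 13 were Ugt2b5, Ugt2b35, Ugt2b37, Ugt2b38, Ugt1a1, Ugt1a5, Ugt1a9, Ugt1a10, Sult1d1, Sult2a3, Sult2a4, Sult2a5 and Sult2a6. The TEAD letters GGAATG were in 6 members (Sult1c1, Sult1e1, Sult2b1, Sult5a1, Ugt1a10 and Ugt3a1) and 12.6% of all promoters, and the AH receptor letters GCGTG in 5 (Sult1b1, Sult1d1, Sult2b1, Ugt1a5 and Ugt1a8) and 28.2%. The C/EBP letters TTGCGCAA were in 0 members and 0.164% of all promoters. All were read on both strands, and none of these runs of letters contains another. A match is a description of letters and shows no binding. Shown are 220 bases upstream of 4 genes of the chromosome 5 cluster and of Sult1a1, from base 250 to base 31 before the start. They were chosen because these members parted in DKO: Ugt2b38 fell, Sult1d1 and Sult1a1 rose, and Ugt2b5 and Ugt2b35 were not called under the main settings. Capitals mark the HNF1 core letters, of which Sult1a1 holds none. Ugt2b5 lies at chr5:87140371-87140590 (minus strand), Ugt2b38 at chr5:87424234-87424453 (minus), Ugt2b35 at chr5:87000610-87000829 (plus), Sult1d1 at chr5:87569037-87569256 (minus) and Sult1a1 at chr7:126676449-126676668 (minus).
Ugt2b5: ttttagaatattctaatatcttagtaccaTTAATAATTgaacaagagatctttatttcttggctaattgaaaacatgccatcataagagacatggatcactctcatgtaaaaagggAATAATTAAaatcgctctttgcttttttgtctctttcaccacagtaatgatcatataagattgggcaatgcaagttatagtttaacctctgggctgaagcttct
Ugt2b38: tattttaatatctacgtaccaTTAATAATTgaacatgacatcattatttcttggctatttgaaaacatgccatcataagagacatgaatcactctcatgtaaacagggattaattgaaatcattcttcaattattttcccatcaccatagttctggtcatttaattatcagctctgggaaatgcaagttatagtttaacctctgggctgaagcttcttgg
Ugt2b35: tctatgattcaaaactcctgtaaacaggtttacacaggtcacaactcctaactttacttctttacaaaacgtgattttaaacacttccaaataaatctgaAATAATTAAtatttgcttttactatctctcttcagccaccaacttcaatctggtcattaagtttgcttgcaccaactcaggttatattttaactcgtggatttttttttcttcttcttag
Sult1d1: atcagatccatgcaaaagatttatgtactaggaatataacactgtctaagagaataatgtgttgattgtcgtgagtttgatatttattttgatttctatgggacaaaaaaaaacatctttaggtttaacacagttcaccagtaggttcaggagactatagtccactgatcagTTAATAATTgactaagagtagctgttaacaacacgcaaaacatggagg
Sult1a1: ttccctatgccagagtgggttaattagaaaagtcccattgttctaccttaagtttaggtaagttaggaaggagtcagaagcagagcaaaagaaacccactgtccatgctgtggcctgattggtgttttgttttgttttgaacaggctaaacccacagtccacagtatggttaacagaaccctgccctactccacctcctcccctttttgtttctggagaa

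Ugt2b5 and Ugt2b38 were 81.0% identical over 231 aligned columns of this stretch, against 50 to 59.5% for the other 9 pairs.

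UGT genes of the Ugt2b group held most UGT UMIs. Ugt2b5, an enzyme that glucuronidates steroids and other substrates, reached 561, 493, 574 and 460.4 CPM, and Ugt2b36 reached 434, 383, 456 and 335 CPM. Together they held 59.3, 52.3, 46.2 and 56.4% of all UGT UMIs, and neither was called in any knock-out, with log2 ratios between -0.37 and 0.07. Ugt2b5 did pass the lower fold when HCs that carried markers of another class were left out, at -1.07 in YAPKO and -1.18 in DKO. Ugt2b1 stood at 183, 186, 332 and 121 CPM and Ugt2b34 at 145, 194, 265 and 167 CPM, so both were highest in TAZKO, at ratios of 0.86 (0.79 to 0.92) and 0.87 (0.80 to 0.94) that did not pass the fold. Ugt2b1 was lowest in DKO, with a ratio of -0.60 (-0.67 to -0.53); less the median of all genes this was -1.05, past the fold. Ugt2b35, named after its values were seen because it completes the group above the floor, stood at 63.1, 84.5, 105 and 58 CPM and was not called under the main settings, although across the alternatives its ratio ran up to 1.3 in YAPKO, from 0.16 to 2.18 in TAZKO and from -1.23 to 0.38 in DKO.

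Under the main settings Ugt2b38 was the only UGT called lower in any knock-out. Others were called lower under some alternatives: Ugt2b1 in DKO with centring, Ugt2b37 in TAZKO with a gate at 10%, a floor of 1 CPM or a total without the 50 most abundant genes, and, without HCs that carried markers of another class, Ugt2b5 and Ugt3a1 in YAPKO and Ugt2b1, Ugt2b35, Ugt2b5, Ugt3a1 and Ugt3a2 in DKO. Its HC level was 45.4 (42.4 to 48.5) CPM in WT, 58.6 in YAPKO, 47.7 in TAZKO and 10.2 (9.15 to 11.4) in DKO. The DKO ratio of -2.15 (-2.34 to -1.96) was far below 0, and the interval of each of the other 3 levels lay above that of DKO. The direction of the TAZKO ratio was not stable: it was 0.07 under the main settings, -1.03, called lower, with every cell thinned to 1000 UMIs, and 0.70 with equal bins of pericentral RNA. After the thinning 4.62, 5.28, 2.5 and 0.76% of HCs held a Ugt2b38 UMI, against 0.233, 0, 0.887 and 0% of B cells, a type that should lack it, where 0 allows up to 0.844% in YAPKO and 1.13% in DKO. Before thinning the median depth was 2166.5, 6457, 1854.5 and 6475 UMIs in HCs and 2944, 2874, 2816.5 and 2150 in B cells.

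Other UGTs differed less in DKO. Ugt2a3 stood at 106, 108, 134 and 120.0 CPM and was not called. Ugt3a2, of a UGT family that uses other sugars than glucuronic acid, stood at 97, 112, 194 and 86 CPM and in TAZKO came to 1.00 (0.91 to 1.08), just under the fold. Its neighbour Ugt3a1 stood at 32.6, 33.4, 101 and 34.8 CPM and was the only UGT that rose under the main settings, in TAZKO, with a ratio of 1.63 (1.5 to 1.77) and of 1.06 less the median. The sum of the 2 Ugt3a genes was 129.6, 146, 295 and 121 CPM, with a TAZKO ratio of 1.19 (1.11 to 1.26), or 0.61 less the median of all genes. In YAPKO and DKO the sum stood at 0.17 and -0.10, but its direction was not stable: across the alternatives it ran from -0.65 to 0.60 in YAPKO and from -1.19 to 0.54 in DKO, both lowest without HCs that carried markers of another class, and less the median of all genes it was -0.23 and -0.55.

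Few UMIs were assigned to Ugt1a genes in the HCs of all 4 libraries. Because these genes share their ends, tags that fit more than 1 of them may be missing from the counts, which was not tested. Their sum was 7.3, 12.7, 18 and 14.7 CPM, and Ugt1a1, the enzyme of bilirubin conjugation and the only one of the 9 above the floor, stood at 3.6, 5.32, 6.54 and 5.18 CPM. The ratio of the sum was 0.80 (0.49 to 1.12) in YAPKO, 1.3 (1.00 to 1.61) in TAZKO and 1.01 (0.73 to 1.29) in DKO. Set against the median of all genes these became 0.40, 0.73 and 0.56, so they kept their direction without passing the fold. Ugt1a1 alone was not called in any knock-out under the main settings, but was called higher with equal bins of pericentral RNA in YAPKO (1.03) and TAZKO (1.10) and from 200 genes per cell in TAZKO (1.14). The Ugt1a1 ratio rested on few UMIs. Across the alternatives it moved widely, from -1.17 to 1.96 in YAPKO, where the direction turned, from 0.28 to 3.03 in TAZKO and from 0.08 to 2.10 in DKO, the highest each time with cells thinned to 1000 UMIs. The ratio of the Ugt1a sum ran from 0.23 to 1.31, 0.73 to 2.41 and 0.25 to 1.10.

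**Figure D1:**
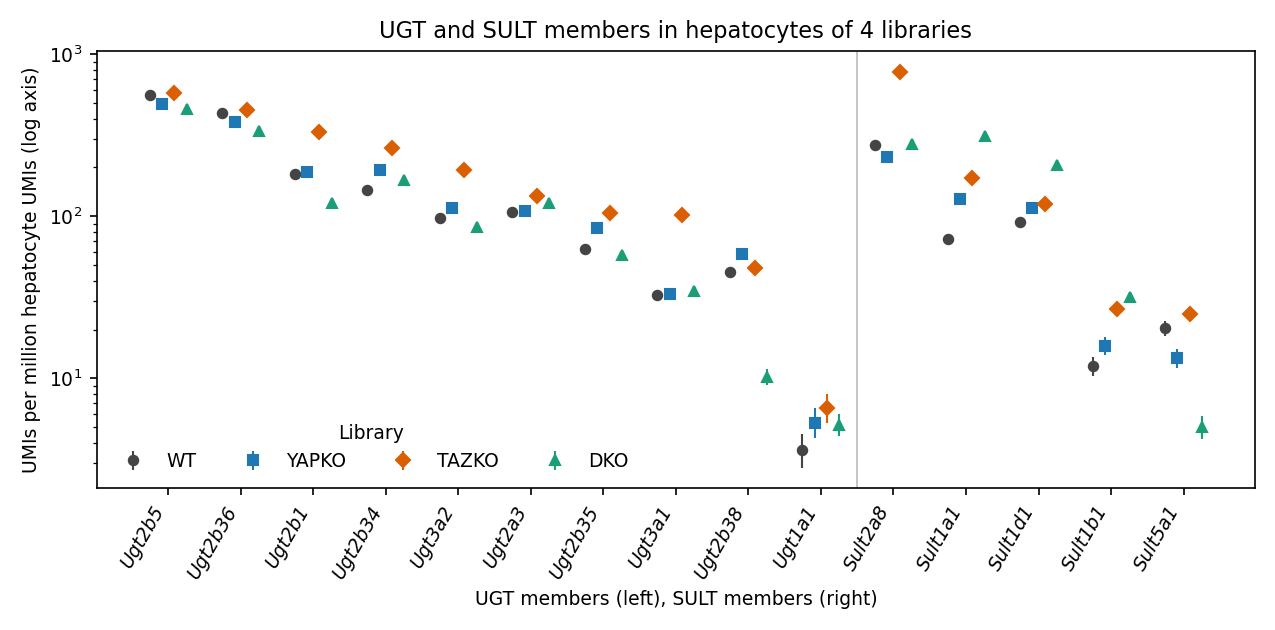
HC level of each member above the floor in the 4 libraries, in CPM on a log axis, with exact 95% Poisson intervals. Ugt2b5 stood highest in WT, YAPKO and DKO and Sult2a8 in TAZKO, and Ugt2b38 and Sult5a1 were low in DKO.

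Among the SULTs, Sult2a8, a bile acid sulfotransferase of mouse liver, was the most abundant in WT, YAPKO and TAZKO. It stood at 274, 233, 778 and 278 CPM and rose in TAZKO only, with a ratio of 1.5 (1.46 to 1.55); its share of all SULT UMIs was 57.6% in WT and 69.1% in TAZKO. Less the median of all genes the ratio was 0.92, and with equal weight for 3 bins of HCs by pericentral RNA it was 0.96, both short of the fold, and across all alternatives it ran from 0.92 to 2.25. In YAPKO and DKO its ratios were -0.24 (-0.30 to -0.18) and 0.02 (-0.03 to 0.07). Across all alternatives they ran from -0.84 to 0.19 and from -0.43 to 0.51, so neither direction was stable.

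Sult1a1, the main phenol sulfotransferase, stood at 72.5, 128, 173 and 315 CPM and took over as the most abundant SULT in DKO, with 37.3% of SULT UMIs. It rose in TAZKO, by 1.26 (1.16 to 1.35), and in DKO, by 2.12 (2.04 to 2.20), and in YAPKO it came to 0.82 (0.72 to 0.92), short of the fold. Relative to the median of all genes the values were 0.42, 0.68 and 1.67, of which only that of DKO passed the fold. Across all alternatives its ratio ran from 0.42 to 1.65 in YAPKO, 0.68 to 1.43 in TAZKO and 1.67 to 2.53 in DKO, and in YAPKO it was called higher under 4 of them, with limits read as UMIs (1.54), without HCs that carried markers of another class (1.65), with each cell weighted equally (1.27) and with cells thinned to 1000 UMIs (1.38). In cells thinned to 1000 UMIs, 6.48, 16, 14.2 and 28.4% of HCs held a Sult1a1 UMI, against 0.932, 0.46, 2.3 and 1.23% of B cells. The share in HCs was thus highest in DKO as well.

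Sult1d1 and Sult1b1 lie next to the Ugt2 genes on chromosome 5. Sult1d1, which acts on catecholamines, stood at 92.1, 112, 119.6 and 206 CPM and rose in DKO, by 1.16 (1.09 to 1.24); less the median of all genes this was 0.71, without the 50 most abundant genes in the total 0.86 and with a gate at 10% 0.87. Sult1b1, which acts on thyroid hormones, stood at 11.8, 15.9, 26.8 and 32 CPM and rose in TAZKO, by 1.18 (0.94 to 1.42), and in DKO, by 1.43 (1.22 to 1.65). After subtraction of that median its ratios were 0.60 and 0.99, and in TAZKO they were 0.93 without the 50 most abundant genes and 0.75 with equal bins of pericentral RNA. Across all alternatives Sult1d1 ran from 0.71 to 1.74 in DKO, and Sult1b1 from 0.60 to 1.80 in TAZKO and 0.99 to 2.25 in DKO, so their calls depended on the settings.

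Sult5a1 was the only SULT above the floor that fell, from 20.3 (18.4 to 22.5) CPM in WT to 4.99 (4.24 to 5.84) in DKO, with 13.2 in YAPKO and 25 in TAZKO. The DKO ratio was -2.03 (-2.30 to -1.76). In YAPKO the ratio of -0.62 (-0.86 to -0.38) did not pass the fold, but did at -1.02 less the median of all genes. Sult4a1, known as a SULT of the brain, was below the floor: HCs held 28, 146, 2 and 0 UMIs, or 1.46, 8.64, 0.139 and 0 CPM, where the exact interval for 0 UMIs in DKO reaches 0.117 CPM. In YAPKO 102 of 1159 HCs held one, with at most 8 UMIs in 1 cell. Thinned to 1000 UMIs, 5 of 1156 HCs did, 0.433% (0.141 to 1.01), against 0 of 435 B cells (up to 0.844%), so these intervals overlapped. The YAPKO level had a log2 ratio of 2.56 (1.97 to 3.20) to WT, from 1 mouse.

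The remaining members had few or no UMIs. Between 1 and 5 CPM on average lay 7 members, and below 1 CPM lay 26, of which 14 had no UMI in the HCs of any library. In all kept cells, 12 members had no UMI. Sult2a1 to Sult2a6, Sult3a1 and Sult3a2, among them the SULTs known to be abundant in female mouse liver, had at most 2 UMIs each in the HCs of any library. For 0 UMIs the exact interval reaches 0.192, 0.218, 0.257 and 0.117 CPM. End windows were shared with other genes in 100% of cases for Ugt2a1 and Ugt2a2, 52.2% for Sult2a2 and 39.7% for Sult2a5. Few or no UMIs there need not mean absence.

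In YAPKO HCs both sums stayed near those of WT under the main settings. The UGT sum was 1677 CPM in WT and 1676 in YAPKO, a fold of 1.00, and the SULT sum was 476 and 514 CPM, a fold of 1.08. Without Sult2a8 the SULT log2 ratio was 0.48 (0.42 to 0.54), and across the alternatives it ran from 0.08 to 1.04. No member was called higher, beside 4.82% of all genes, and none was called lower, beside 0.534%. Less the median of all genes, where 1.46% of genes were called higher and 1.23% lower, Sult5a1 was called lower and no member higher. On that scale the log2 ratio was -0.40 for the UGT sum and -0.29 for the SULT sum, so the SULT sum turned from above to below WT; without the 50 most abundant genes in the total it was -0.10. Without HCs that carried markers of another class, the UGT sum stood at -0.67, with 2 of 14 members called higher (Sult1a1 and Sult1b1), beside 20.5% of all genes, and 3 lower (Sult5a1, Ugt2b5 and Ugt3a1), beside 5.50%. With that filter less the markers Fn1, Bst2, Tm4sf4, Spp1, Lyz2 and Tcf4, no member was called. Sult1a1 and Ugt2b35 were called higher with each cell weighted equally, with cells thinned to 1000 UMIs and with limits read as UMIs, where Ugt2b35 stood at 1.06, 1.3 and 1.04, beside 18.2, 23.2 and 20.1% of all genes. Under the main settings the member ratios had a median of 0.21 and ran from -0.62 to 0.82.

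In TAZKO HCs SULT levels were more than double those of WT, and UGT levels were moderately higher, or slightly lower when centred on the median of all genes. The SULT sum was 1125 CPM against 476 in WT, a log2 ratio of 1.24 (1.20 to 1.28), and the UGT sum was 2228 against 1677, or 0.41 (0.39 to 0.43). Of the 15 members above the floor, 4 rose (Sult1a1, Sult1b1, Sult2a8 and Ugt3a1; 18.8% of all genes) and 0 fell (1.16%). Without Sult2a8 the SULT ratio was 0.79 (0.72 to 0.85), so 1 gene carried the sum past the fold. The median member ratio was 0.86, beside 0.58 over all genes. TAZKO held the highest of the 4 levels for 11 of the 15 members, beside 49.6% of all genes.

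Scaling changed this picture. Less the median of all genes, where 2.94% of genes were called higher and 5.06% lower, only Ugt3a1 was called higher and no member lower. The SULT sum then stood at 0.66 and the UGT sum at -0.17, so the direction of the UGT sum flipped under this scaling. The SULT sum also came short of the fold with a gate at 10% (0.95), without the 50 most abundant genes (0.99) and with equal bins of pericentral RNA (0.90), and was highest, at 1.84, with limits read as UMIs. Of 14 members 8 were called higher with each cell weighted equally or thinned to 1000 UMIs (the 4 above, Ugt2b1, Ugt2b34, Ugt2b35 and Ugt3a2), beside 43.7 and 42.9% of all genes. With Ugt2a3 this became 9 without HCs that carried markers of another class, beside 45.5%, and with Sult1d1 10 where the limits of 500 to 6000 were read as UMIs, beside 50.4%. In these settings the share of all genes rose with that of the members. Limits read as UMIs put the UGT sum at 1.02. From 200 genes per cell, 8 of 15 members were called higher, beside 25.5% of all genes. Of all calls, 94.2% were higher without centring and 36.8% with it; in YAPKO these shares were 90.0 and 54.2%, and in DKO 85.6 and 47.3%.

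In DKO HCs the UGT sum was 1411 CPM, the lowest of the 4 libraries, with a log2 ratio of -0.25 (-0.27 to -0.23), or 0.04 with a gate at 10%. The SULT sum was 844 CPM, with a ratio of 0.83 (0.79 to 0.86), and neither passed the fold under the main settings. The SULT sum did with limits read as UMIs (1.26), without HCs that carried markers of another class (1.04), with each cell weighted equally (1.02) and with cells thinned to 1000 UMIs (1.02). Of the 15 members, 3 rose (Sult1a1, Sult1b1 and Sult1d1; 9.7% of all genes) and 2 fell (Sult5a1 and Ugt2b38; 1.64%). DKO held the lowest of the 4 levels for 7 of the 15, beside 10.8% of all genes, and WT also for 7, beside 69.5%. Less the median of all genes, with 3.28% of genes called higher and 3.66% lower, Sult1a1 was called higher and Sult5a1, Ugt2b1 and Ugt2b38 lower. The UGT sum then stood at -0.70 and the SULT sum at 0.38, so both kept their direction. The gate at 10%, where the UGT sum turned, left 233, 73, 103 and 119 HCs. Without HCs that carried markers of another class it came to -1.05, and 7 of 14 members were called lower, beside 6.61% of all genes. With that filter less the markers Fn1, Bst2, Tm4sf4, Spp1, Lyz2 and Tcf4, it was -0.23, and the same 2 members as in the main settings were called lower. Without Sult2a8 the SULT ratio was 1.49 (1.44 to 1.54).

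**Figure D2:**
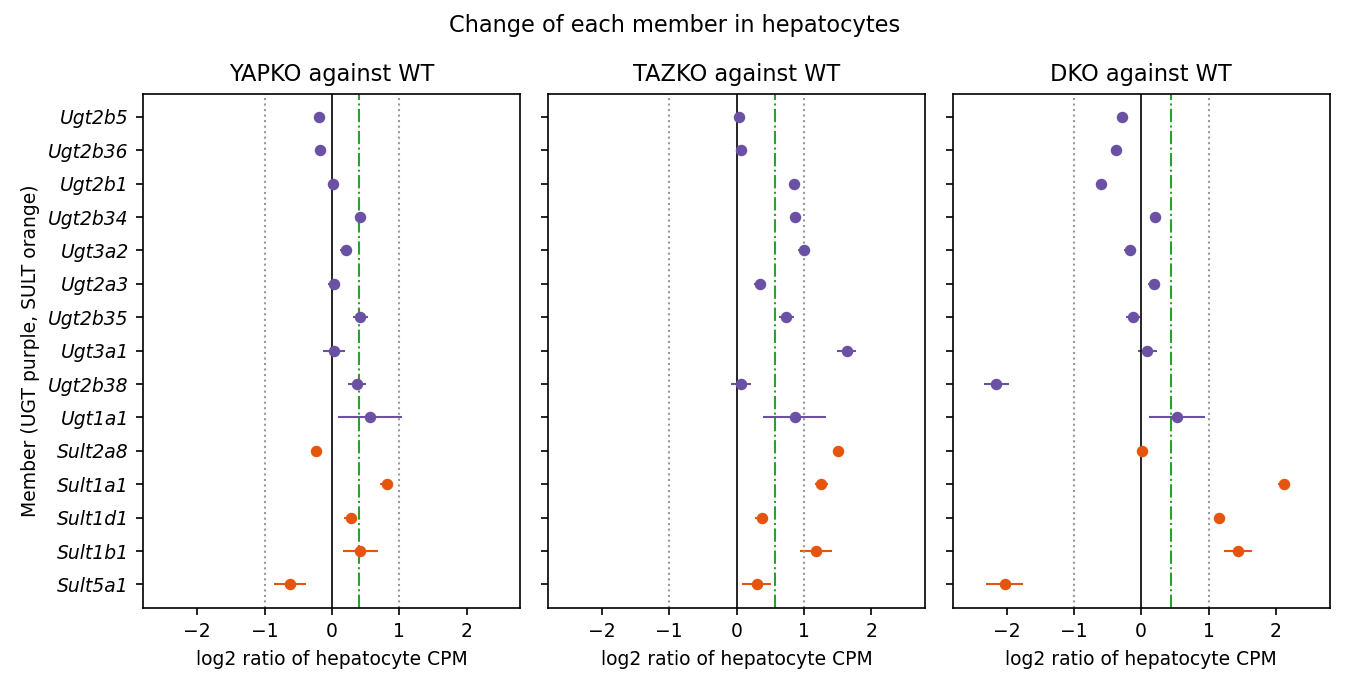
Log2 ratio of each knock-out to WT for the members, in HCs, with exact 95% intervals; dotted lines mark the fold of 2 and the dash-dot line the median of all genes. In DKO most UGT members lie below the median of all genes, with Ugt2b38 at -2.15, while Sult1a1 lies at 2.12.

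DKO, which lacks both factors, can also be set against each single knock-out, a comparison without the WT library. Against TAZKO the DKO log2 ratio was -1.48 for Sult2a8, -1.54 for Ugt3a1, -1.46 for Ugt2b1, -1.17 for Ugt3a2, -2.22 for Ugt2b38 and -2.32 for Sult5a1, so 6 of the 15 members stood at a fold below 0.5 in DKO, beside 6.2% of all genes, and 0 at a fold above 2, beside 4.93%. After subtraction of the median of all genes in this comparison, -0.15, the same 6 passed the lower fold, beside 4.42%, and Sult1a1 the upper, beside 7.38%. Sult1a1 stood higher in DKO, at 0.86. All intervals of these 7 ratios excluded 0. Against YAPKO the DKO ratio was -2.52 for Ugt2b38, -1.41 for Sult5a1, 1.3 for Sult1a1 and 1.01 for Sult1b1, so 2 of 15 were past the fold in each direction, beside 2.2% of all genes higher and 2.52% lower. With centring Sult1b1 came short of the fold, where 1.91% of genes were higher and 2.77% lower. Ugt2b38 and Sult5a1 were thus lowest, and Sult1a1 and Sult1b1 highest, in the library without both factors. These ratios were not rerun under alternatives other than centring, and whether the sum of the single knock-outs differs from DKO was not tested.

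Depth moved with these levels. HCs with under 1500 genes held a UGT sum of 1224, 907, 2332 and 740.3 CPM, and those with at least 1500 genes held 1805, 1744.5, 2187 and 1482 CPM. In WT, YAPKO and DKO shallow HCs thus carried less UGT RNA per UMI than deep ones, and in TAZKO they carried slightly more. The SULT sum was 415, 571, 1395 and 882 CPM in shallow HCs and 494, 509, 1018 and 839.9 in deep ones. Deep HCs alone kept the order of the sums, with TAZKO highest and DKO lowest for UGT, and WT lowest and TAZKO highest for SULT. These deep HCs numbered 470, 674, 748 and 1841. Their median depth was 28891.5, 19853, 6972.5 and 10986 UMIs, so deep HCs were not alike in depth either. That of shallow HCs was 1940, 2721, 1480.5 and 2815 UMIs. In the levels over all HCs a deep HC thus weighed more than a shallow one, also in WT, where deep HCs were the fewest. The low Ugt2b38 and the high Sult1a1 of DKO were seen at both depths: Ugt2b38 stood at 42.8, 40.0, 25.6 and 5.27 CPM in shallow and 46.1, 60.3, 56.4 and 10.8 in deep HCs, and Sult1a1 at 70.8, 204, 160.2 and 354 and 73, 121, 178 and 310.5. The part of depth in the differences between genotypes was not tested.

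**Figure D3:**
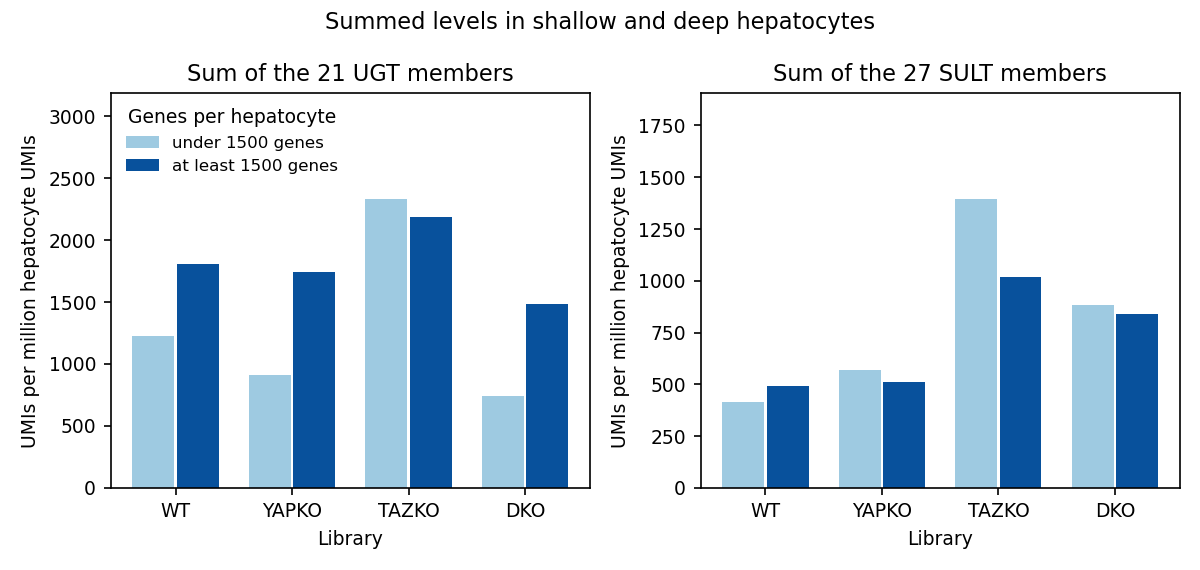
Summed UGT and SULT levels, in CPM, of HCs with under and with at least 1500 genes in each library. The UGT sum of shallow HCs ran from 740.3 in DKO to 2332 in TAZKO, and that of deep HCs from 1482 to 2187.

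Markers of other cells were also read in HCs, since droplets can hold more than 1 cell. The 7 BEC markers summed to 148, 452, 175 and 429.6 CPM (top gene Tm4sf4 or, in YAPKO, Spp1), the 9 endothelial cell (EC) markers to 146, 124, 287 and 135, the 8 Kupffer cell (KC) markers to 138, 119.5, 174 and 125 and the 9 stellate cell (HSC) markers to 20.9, 13.8, 34.1 and 27.4. The 8 macrophage markers summed to 462, 687, 633 and 451 CPM, about 93% of it Fn1, and the 6 plasmacytoid dendritic cell (pDC) markers to 469, 451, 370.0 and 314, most of it Bst2. Neutrophil markers (6, top gene S100a9) summed to 238, 165, 46.2 and 42.6 CPM, and those of T (7), B (6), NK (6) and conventional dendritic (cDC, 6) cells to at most 83.4. Defining markers at 0 were few, at most 2 of a list in any library. When HCs with at least 3 UMIs of any such list were left out, Ugt2b38, Sult5a1 and Sult1a1 in DKO and Ugt3a1 in TAZKO stayed past the fold, at -3.38, -2.19, 2.52 and 2.18. This filter kept 1337, 330, 2094 and 1160 of 2254, 1159, 3112 and 2925 HCs, fewest in the libraries with deep HCs, in which 3 UMIs of a list are reached more readily.

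Members were also compared across liver cell types. Kept cells outside the HC gate were clustered without the members and named into 11 classes by their likeness to fixed markers. Of the 15 members above the floor, 13 (86.7%) stood at least 2 times higher in HCs than in every class of at least 50 cells in all 4 libraries, beside 8.69% of all genes above it. The exceptions were Sult1a1 and Sult5a1. The size limit meant that BECs were compared in WT only, with 32, 27 and 7 cells in YAPKO, TAZKO and DKO. It also left out the 46 neutrophils of TAZKO. The lowest folds over a class were 2.58 for Ugt1a1 and 2.61 for Sult1b1, against NK cells of YAPKO and TAZKO with 2 and 4 UMIs. At 4 times, 11 members passed. The floor was set on HC levels, so the other 33 of the 48 members, scarce in HCs and in some cases higher elsewhere, are not in this count. A class was not always the same cluster: EC-like cells fell mainly in cluster 4 in WT, cluster 1 in YAPKO and DKO and cluster 15 in TAZKO, and KC-like cells in cluster 0 or, in TAZKO, cluster 16. All 9 EC markers passed the fold in each of these EC clusters, but 5 of the 10 top genes of cluster 4 were Mup genes of HCs and 1 was an EC marker. Cluster 16 passed the fold for 6 of 8 KC markers, with 0 among its top 10 genes, and at resolution 1.0 a cluster with the same 10 top genes and 1073 TAZKO cells was unnamed, and 19 TAZKO cells were named KC. Naming cells by marker UMIs alone left 12 members, without Sult1b1.

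Outside HCs, UGT levels were low. In ECs the UGT sum was 67.8, 18.2, 164 and 20.5 CPM, beside 79.3, 18.6, 107 and 19.7 CPM that HC RNA in proportion to the 4 gate genes would give. Over all kept cells outside the gate it was 60.1, 26.8, 160.3 and 37.7 CPM, beside 63.1, 22.7, 114 and 43.6. Over all these cells the sum lay above this level in YAPKO and TAZKO and below it in WT and DKO. By class the sum of TAZKO lay above this level in 10 of 11 classes, all but the 27 BECs, with 132 beside 90.1 CPM in KCs and 118 beside 68.8 in macrophages, and the source of this excess was not tested. In the other libraries the sum lay on both sides, from 20.1 beside 72.2 CPM in the BECs of YAPKO to 61.3 beside 31.6 in the neutrophils of DKO. No UGT sum outside HCs was read as expression.

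Sult1a1 was expressed well beyond HCs. In ECs it stood at 93.2, 80.4, 63.7 and 70.3 CPM, beside 3.43, 1.42, 8.3 and 4.39 from HC RNA. KCs held 82.7, 104, 73.8 and 92.5 CPM, HSCs 95.8, 77.2, 55 and 84 and cDCs 61.3, 56.7, 43.7 and 50.1, all far above the level of HC RNA, which was at most 7.18 CPM in these classes. BECs held 162, 73.6, 87.5 and 139 CPM, from 54, 32, 27 and 7 cells. B cells, by contrast, held 10.2, 4.41, 17.9 and 10.9 CPM, beside 4.78, 2.54, 12.2 and 9.49 from HC RNA. HSCs of all 4 libraries came from the same 2 clusters, and there WT held the highest Sult1a1 level and TAZKO the lowest. Because ECs and KCs did not, their levels were not ordered by genotype.

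**Figure D4:**
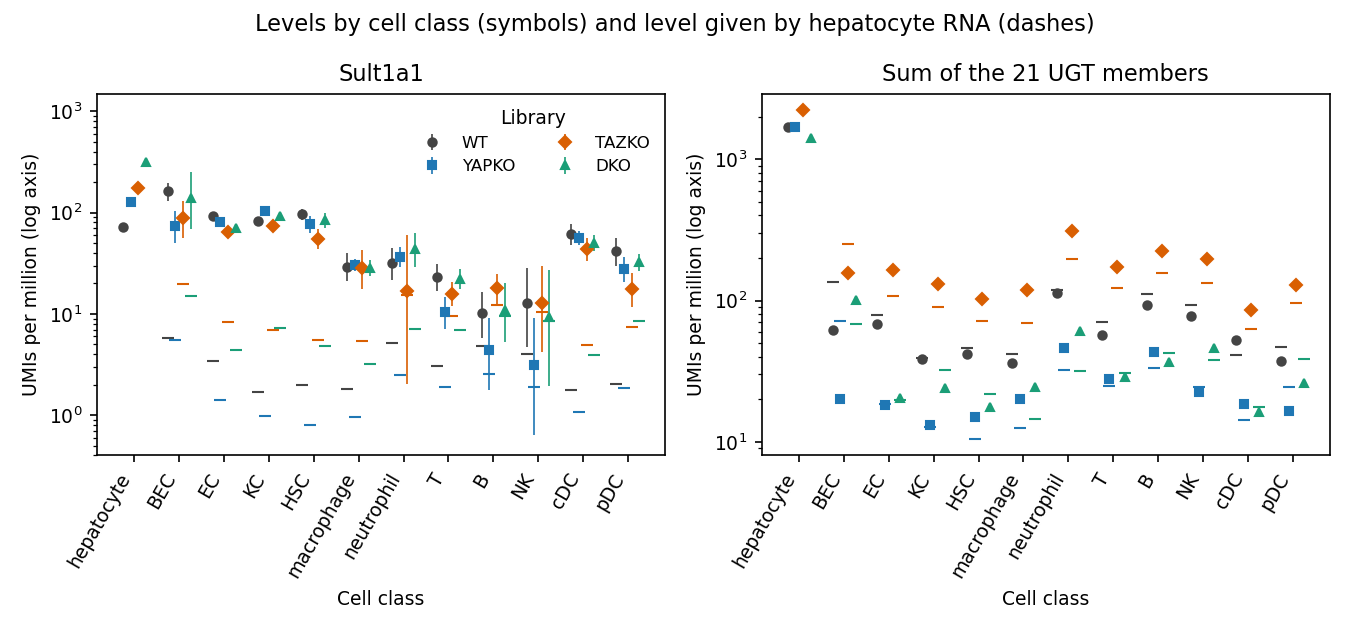
Level of Sult1a1 and of the summed UGT members by cell class and library, in CPM on a log axis, with dashes for the level that HC RNA would give and 95% intervals for Sult1a1. Sult1a1 in ECs, KCs and HSCs lies between 55 and 104, far above its dashes, while the UGT sum lies on both sides of them, such as 164 beside 107 in the ECs of TAZKO.

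Few other members stood out beyond HCs. Sult5a1 had 4, 11, 11 and 11 UMIs in HSCs, or 1.72, 7.86, 7.96 and 6.25 CPM; in DKO this lay beside 4.99 CPM in HCs. Ugt1a6a, which glucuronidates small phenols, had 7, 12, 2 and 9 UMIs in neutrophils, or 6.7, 5.78, 16.8 and 13.4 CPM, and Ugt1a7c had 17, 14, 2 and 5, or 16.3, 6.75, 16.8 and 7.47 CPM. Both stood at least 2 times higher there than in HCs in all 4 libraries, although 2 UMIs in the 46 neutrophils of TAZKO leave an interval of 2.03 to 60.6 CPM for each, and the assignment among Ugt1a genes is uncertain. UMIs of Ugt1a6a and Ugt1a7c were not confined to neutrophils. Over all libraries together macrophages held 34 and 49, or 2.42 and 3.49 CPM, and cDCs 17 and 18, or 2.22 and 2.35 CPM. The HC means were 3.01 and 1.4 CPM. Sult2b1, a cholesterol and steroid sulfotransferase, had 15, 14, 6 and 12 UMIs in NK cells, or 32.3, 14.5, 15.4 and 37.2 CPM, 10, 7, 6 and 5 UMIs in T cells and 2, 19, 2 and 1 UMIs in BECs, where HCs held 3, 4, 1 and 0.

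Position in the lobule was read within each library. HCs were ranked by the share of a pericentral list (Glul, Cyp2e1, Oat, Slc1a2, Rgn, Lect2, Cyp1a2 and Axin2) in the UMIs of that and a periportal list and split into 3 equal parts, and the highest part was set against the lowest. Only Ugt2b38 was called, as periportal, with log2 ratios of -1.24, -1.08, -2.22 and -2.52, beside 0.107% of all genes; 0 members were called pericentral, beside 1.42%. That call ended with a gate at 10% and without HCs that carried markers of another class. Sult2a8 leaned to the pericentral side in all 4 libraries, at 0.87, 1.56, 0.70 and 2.58, as did Sult1b1, Sult1d1, Ugt2b1, Ugt2b34 and Ugt2b35. Sult1a1, at -0.33, -0.51, -0.46 and -0.19, and Sult5a1, at -0.22, -1.19, -1.25 and -0.46, leaned to the periportal side in all 4. The intervals of Sult5a1 in WT and DKO, and that of Sult1d1 in WT, included 0.

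The ranking itself was coarse. In WT 1306 of 2254 HCs had no UMI of the pericentral list, against 472 of 1159 in YAPKO, 146 of 3110 in TAZKO and 827 of 2925 in DKO. Pericentral genes held 4.38, 8.71, 21.1 and 10.6% of the UMIs of both lists, and whether the mix of HCs along the lobule or the level of these genes within HCs differed was not tested. Sult2a8, which leaned to the pericentral side, was also highest in TAZKO. With 3 bins of pericentral share weighted equally, Sult2a8 in TAZKO stood at 0.96 against 1.5 before. These bins also differed in size and depth: the lowest held 322 HCs at a median of 11933.5 UMIs in TAZKO and 1561 HCs at a median of 2240 UMIs in WT, and the highest 2339 HCs at a median of 1712 UMIs and 156 HCs at a median of 2058.5 UMIs. The part of zone and of depth in these differences was not tested.

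**Figure D5:**
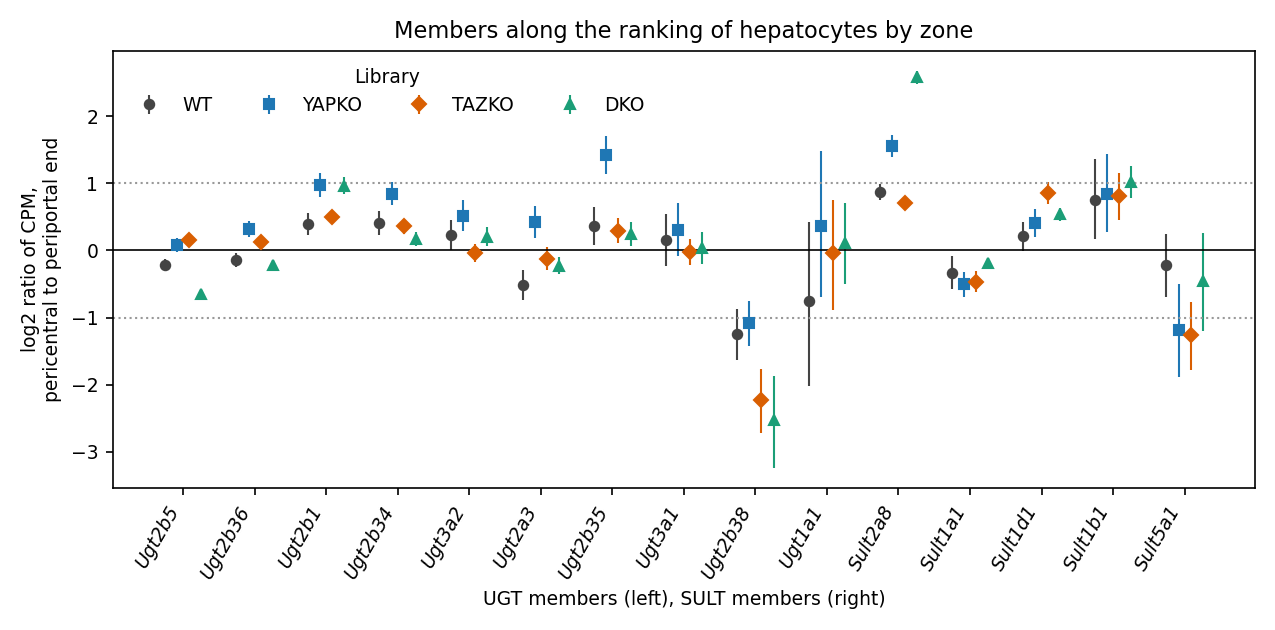
Log2 ratio of the highest to the lowest of 3 equal parts of HCs ranked by pericentral RNA, for each member and library, with exact 95% intervals. Ugt2b38 lies below -1 in all 4 libraries, and Sult2a8 lies above 0, up to 2.58 in DKO.

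Genes that feed and serve these enzymes were read from fixed lists. For UDP-glucuronic acid supply, 0, 1 and 1 of 5 genes above the floor were called higher in YAPKO, TAZKO and DKO, beside 4.82, 18.8 and 9.7% of all genes, and none lower; less the median of all genes these counts were 0, 0 and 0. Ugdh, which makes UDP-glucuronic acid, stood at 77.7, 136, 134 and 170.4 CPM and rose in DKO. For PAPS supply, 0, 3 and 1 of 9 were called higher, or 0, 1 and 1 with centring, and none lower. Papss1 and Papss2, which make PAPS, stood at 2.71, 4.38, 11.9 and 11.1 and 43.3, 84.6, 98 and 77.7 CPM, and Papss1 rose in TAZKO and DKO and Papss2 in TAZKO; less the median of all genes Papss1 stayed past the fold in both, at 1.56 and 1.58, and Papss2 and Ugdh did not. The median TAZKO ratio of the 9 was 0.87, beside 0.58 over all genes. Both PAPS synthases and the SULT sum were higher in TAZKO than in WT. Papss2 also stood above WT in YAPKO, at a log2 ratio of 0.97, where that of the SULT sum was 0.11. Whether these levels are linked was not tested.

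Exporters and hydrolases of conjugates behaved unevenly. Of 4 exporters, 1, 2 and 1 were called higher, beside 4.82, 18.8 and 9.7% of all genes, among them Abcc3, at 19.2, 39.8, 56.4 and 57.3 CPM, in every knock-out, although less the median of all genes only its DKO value of 1.13 passed the fold. Abcg2, which exports sulfates, fell in DKO, from 90.6 to 40.9 CPM, and with centring passed the lower fold in TAZKO as well, at -1.25. Of 6 deconjugation genes (Sts was not in the gene list), 0, 1 and 1 were called higher, or 0, 1 and 0 with centring, beside the same shares and, with centring, 1.46, 2.94 and 3.28%, and none lower. The beta-glucuronidase Gusb stood at 20.1, 28.4, 18.2 and 20.5 CPM.

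Regulators known to act on both families included some that rose. Of 13, 2 rose in YAPKO, 4 in TAZKO and 5 in DKO (beside 4.82, 18.8 and 9.7% of all genes), and none fell; less the median of all genes 1, 2 and 2 passed the fold, beside 1.46, 2.94 and 3.28%. Ahr stood at 2.35, 12.7, 17.5 and 13 CPM, Nr1i3 (CAR) at 5.11, 7.16, 51.6 and 21 and Nfe2l2 (NRF2) at 26.3, 54.2, 55.9 and 55.5, so Ahr and Nfe2l2 were called in every knock-out and Nr1i3 in TAZKO and DKO; less the median of all genes Ahr and Nr1i3 kept these calls and Nfe2l2 kept none. Of their targets outside the UGT and SULT families, 2, 1 and 2 of 2 AH receptor genes rose, 3, 3 and 3 of 5 CAR and PXR genes, and 3, 1 and 2 of 7 NRF2 genes, with none called lower. With centring these counts were 1, 1 and 1 for the AH receptor, 1, 3 and 2 for CAR and PXR and 2, 0 and 2 for NRF2. Cyp3a11 stood at 30.3, 403, 150.2 and 1069.9 CPM and Gstm3 at 7.92, 69.3, 11.6 and 203, and their DKO log2 ratios of 5.14 and 4.68 exceeded those of every member above the floor. Both were highest in DKO, where the UGT sum was lowest. Cyp2c29, of the same CAR and PXR list as Cyp3a11, stood at 179, 233, 733 and 155 CPM. Like the UGT sum it was highest in TAZKO and lowest in DKO. Whether these levels are linked was not tested.

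Lists that describe the state of the HCs moved with genotype too. Of 6 pericentral genes above the floor, 5 rose in each knock-out (Cyp1a2 is also on the AH receptor list), beside 4.82, 18.8 and 9.7% of all genes; less the median of all genes 3, 5 and 3 did. Of 8 periportal genes 0, 1 and 1 rose and 1 fell, in DKO, and with centring 0, 0 and 0 passed the upper and 0, 1 and 1 the lower fold. Of 9 genes known to be higher in male liver, 0, 1 and 0 rose and 3, 2 and 4 fell, the latter beside 0.534, 1.16 and 1.64% of all genes. Less the median of all genes 6, 4 and 7 passed the lower fold, beside 1.23, 5.06 and 3.66%, and 0, 1 and 0 the upper. Mup20 stood at 74485, 42639, 7018 and 41687.5 CPM, Elovl3 at 245, 107, 399 and 11.8 and Mup11, with the largest change, at 6012, 543, 7.38 and 35.2. None of 9 female-liver genes reached the floor. Of 9 acute-phase genes, 2, 0 and 1 rose and 0, 8 and 3 fell, and with centring 1, 0 and 1 passed the upper and 1, 9 and 5 the lower fold. Of 9 genes induced by tissue dissociation 0, 0 and 2 rose and 2, 2 and 2 fell, and with centring 0, 0 and 1 passed the upper and 4, 5 and 2 the lower fold. In DKO, where Ugt2b38 and Sult5a1 fell, the male-liver genes that fell were Elovl3, Mup11, Hsd3b5 (42, 15.1, 59.6 and 6.26 CPM) and Cyp7b1 (388, 203, 225 and 67.2), while Slco1a1 and Cyp4a12b stood above WT, at 0.42 and 0.13; less the median of all genes these were -0.03 and -0.32. Whether these changes are linked was not tested.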

How the data were processed

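The deposited matrices of 4 libraries were read as UMI counts, which the authors made with Cell Ranger on mm10; the labels give version 6.0.1 and the file headers 4.0.0. Cells were kept at 500 to 6000 genes and at most 10% mitochondrial UMIs, and HCs by the gate of 3% on Alb, Apoa1, Ttr and Apoc3. No doublet caller was run; leaving out cells with at least 3 UMIs of the markers of another class stands in for it. No barcode was removed for occurring in more than 1 library (212 sequences, 94 among kept cells). Counts were summed per library, with exact Poisson and conditional binomial 95% intervals, using scipy 1.17.1, pandas 2.3.3 and numpy 2.4.6 (Python 3.11.15), and plotted with matplotlib 3.10.9. Other kept cells were clustered without the members (scanpy 1.11.5, igraph 0.11.9, 2000 variable genes, 30 components, 20 neighbours, resolution 0.5, seed 1), and a cluster took the class with the highest mean fold of its fixed markers, of which at least 3 had to pass a fold of 2. It stayed unnamed where another class had more of its fixed markers among the 10 top genes, or where none of its own class was there and its cells were shallow. Gene positions came from GENCODE and promoters from RefSeq.

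Named members were the 6 UGT and 6 SULT genes with the highest mean level in HCs, every member above the floor that was called, and every member at least 2 times higher in another class in all 4 libraries with at least 20 UMIs there. Alternatives changed the gate, the limits, the total, the centring, the weighting and depth of cells, the floor, the classes and the zones. Members, lists and rules were chosen with earlier results of these data known. No p-value was computed, since each genotype was 1 library.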

Additional observations from a re-analysis of the deposited data

How the results depend on the processing

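In all, 16 alternatives were set first and 4 more were chosen after seeing the data. The latter were at least 200 and at least 1500 genes per cell, the marker filter without Fn1, Bst2, Tm4sf4, Spp1, Lyz2 and Tcf4, and equal bins of pericentral share. Counts of the gene lists and of DKO against each single knock-out with centring were also added then. Of the values for counts, sums, classes and zones, 92 stayed within their interval (for counts, within 1.5 times), 95 moved and 0 reversed (a called value changing sign), and the cause was not tested. The values that moved follow, as log2 ratios of the summed levels and as numbers of members called. With a gate at 1%, log2 ratios were UGT 0.054 in YAPKO, 0.35 in TAZKO and -0.23 in DKO, and SULT 0.18 in YAPKO, 1.19 in TAZKO and 0.88 in DKO. With a gate at 10%, log2 ratios were UGT -0.18 in YAPKO, 0.36 in TAZKO and 0.044 in DKO, and SULT -0.18 in YAPKO, 0.95 in TAZKO and 0.90 in DKO. Here 2 of 17 members were called higher in YAPKO, beside 8.02% of all genes, and 2 lower in TAZKO, beside 2.04%. Reading the limits 500 to 6000 as UMIs, log2 ratios were UGT -0.15 in YAPKO, 1.02 in TAZKO and -0.46 in DKO, and SULT 0.62 in YAPKO, 1.84 in TAZKO and 1.26 in DKO. Here 2 members were called higher in YAPKO and 10 in TAZKO. Leaving out HCs with markers of another class, log2 ratios were UGT -0.67 in YAPKO, 0.90 in TAZKO and -1.05 in DKO, and SULT 0.39 in YAPKO, 1.73 in TAZKO and 1.04 in DKO. Here 2 members were called higher in YAPKO and 9 in TAZKO, and 3 called lower in YAPKO and 7 in DKO. Without the 50 most abundant genes in the total, log2 ratios were UGT -0.22 in YAPKO, 0.16 in TAZKO and -0.55 in DKO, and SULT -0.10 in YAPKO, 0.99 in TAZKO and 0.52 in DKO. Here 1 of 16 members was called higher in YAPKO, beside 2.97% of all genes, and 1 lower in TAZKO, beside 2.17%. Centred on the median of all genes, log2 ratios were UGT -0.40 in YAPKO, -0.17 in TAZKO and -0.70 in DKO, and SULT -0.29 in YAPKO, 0.66 in TAZKO and 0.38 in DKO. Here 1 member was called higher in TAZKO and 1 in DKO, and 1 called lower in YAPKO. With each cell weighted equally, log2 ratios were UGT 0.043 in YAPKO, 0.80 in TAZKO and -0.29 in DKO, and SULT 0.38 in YAPKO, 1.62 in TAZKO and 1.02 in DKO. Here 2 members were called higher in YAPKO and 8 in TAZKO. Thinned to 1000 UMIs per cell, log2 ratios were UGT 0.80 in TAZKO and -0.31 in DKO, and SULT 0.37 in YAPKO, 1.62 in TAZKO and 1.02 in DKO. Here 2 members were called higher in YAPKO and 8 in TAZKO, and 1 called lower in TAZKO, beside 2.73% of all genes lower there. From 200 genes per cell, log2 ratios were UGT 0.096 in YAPKO, 0.54 in TAZKO and -0.14 in DKO, and SULT 0.19 in YAPKO, 1.37 in TAZKO and 0.91 in DKO. Here 8 of 15 members were called higher in TAZKO, beside 25.5% of all genes. From 1500 genes per cell, log2 ratios were UGT -0.049 in YAPKO, 0.28 in TAZKO and -0.28 in DKO, and SULT 0.045 in YAPKO, 1.04 in TAZKO and 0.77 in DKO. With that filter less Fn1, Bst2, Tm4sf4, Spp1, Lyz2 and Tcf4, log2 ratios were UGT 0.51 in TAZKO and -0.23 in DKO, and SULT 1.35 in TAZKO and 0.88 in DKO. With equal bins of pericentral share, log2 ratios were UGT 0.13 in YAPKO and 0.44 in TAZKO, and SULT 0.19 in YAPKO, 0.90 in TAZKO and 0.74 in DKO. Here 1 of 15 members was called higher in YAPKO, beside 6.8% of all genes. At a floor of 1 CPM, 22 members were tested. Called higher were 5 in YAPKO, 7 in TAZKO and 7 in DKO, beside 7.62, 25.01 and 13.4% of all genes. Called lower were 2 in TAZKO, beside 1.72% of all genes. At a floor of 20 CPM, 1 of 13 members was called lower in DKO, beside 1.97% of all genes. The zone call of Ugt2b38 gave 0 members with a gate at 10% and 0 without HCs that carried markers of another class. Of single members 333 values stayed within their interval, 449 moved and 1 reversed: Sult4a1 in TAZKO went from -3.39 to 0.58 without HCs that carried markers of another class, from few UMIs. Across all alternatives the DKO ratio ran from 1.67 to 2.53 for Sult1a1, from -3.38 to -1.95 for Ugt2b38 and from -2.47 to -1.29 for Sult5a1, and the TAZKO ratio of Ugt3a1 from 1.06 to 2.42, so these 4 ratios stayed past the fold throughout. At a floor of 20 CPM Sult5a1 lay below the floor and its call was lost. Totals without mitochondrial genes and a mitochondrial limit of 20% moved no sum beyond its interval.

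With 1 mouse and 1 library per genotype, intervals hold counting error only and say nothing of the spread between mice. No paired analysis was possible because the replicate number 1 of each genotype names a different mouse. Most HCs of WT and TAZKO were shallow, and a further 5871, 703, 4787 and 432 barcodes of WT, YAPKO, TAZKO and DKO met the HC gate with under 500 genes. Tags at the 3′ end cannot tell most Ugt1a genes apart, and members with few UMIs are limited by depth. Age and strain of the mice are not in the labels, and neither was checked.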

Other observations

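A few scarce members, picked after their values were seen, were highest in 1 library. Sult1c2 had 19, 30, 15 and 175 UMIs in the HCs of WT, YAPKO, TAZKO and DKO, or 0.991, 1.77, 1.04 and 5.56 CPM, and 10 UMIs in the BECs of all libraries together, or 7.02 CPM. Ugt2b37, a neighbour of Ugt2b5 on chromosome 5, stood at 3.39, 10.5, 1.46 and 2.73 CPM in HCs, highest in YAPKO. Sult1e1, the estrogen sulfotransferase, had 3, 14, 0 and 3 UMIs, or 0.156, 0.828, 0 and 0.0954 CPM, also highest in YAPKO. These members lay below the floor and were not counted among the calls under the main settings.

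A cluster of 546 kept cells outside the gate carried HC markers (gate genes 2.06% of UMIs) and held 11, 93, 172 and 270 cells of WT, YAPKO, TAZKO and DKO. It was left out of the 11 classes, so its UMIs enter only the values over all kept cells outside the gate.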
